A study of Mus musculus with 6 samples.

Results

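The mouse zinc finger genes with a number from Zfp600 to Zfp999 were followed in haploid and diploid embryonic stem (ES) cells. A gene belonged to the set if a probe set of the array carried 1 gene symbol and that symbol was Zfp followed by a 3-digit number in this range. This gave 240 probe sets for 133 genes, out of 18193 genes measured. A gene was represented by its probe set with the highest mean over the 6 arrays. No expression difference entered this rule, but the set was chosen with earlier results of these data known.

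RNA from 3 haploid and 3 diploid ES cell samples was measured on Affymetrix mouse GeneChip arrays, 1 array per sample. HAP1 (passage 24) and HAP2 (passage 21) were haploid lines of F1 CBAxB6 background, and HTG1 (passage 11) was a haploid line that the labels call mixed transgenic, without naming the transgene. Diploid replicates 1 and 2 were male cells of strain 129Sv and diploid replicate 3 was male and of strain 129. The labels name no line and no passage for the diploid replicates, and do not say whether they are separate lines. All 6 cultures were kept in 2i medium, which blocks the kinases MEK and GSK3, and RNA was taken on day 2 after a passage. Strain and ploidy cannot be told apart in this design, and Zfp clusters are known to vary in sequence and copy number between mouse strains. Haploid ES cell cultures are known to gain diploid cells as they grow, and the labels give no haploid share for these cultures. Each group's arrays are called biological triplicates by the study's design, and the p-values rest on the spread among them.

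Most genes of this kind encode proteins with tandem C2H2 zinc fingers that read DNA, and many of them carry a KRAB domain in addition. A KRAB domain binds the corepressor TRIM28, which brings the histone methyltransferase SETDB1 and HP1 proteins, so that the bound site is covered with H3K9 trimethylation. In ES cells this system is known for silencing endogenous retroviruses and for protecting imprinted regions. KRAB zinc finger genes lie in clusters of recent duplicates, and a probe for one copy can also catch RNA of its relatives. Other members of the number range have no KRAB domain and act in RNA processing, ribosome assembly or transcription.

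Values are on the log2 scale of RMA, the authors' processing of the array signals, so that a difference of 1 is 2-fold. The medians of the 6 arrays ran from 6.31 to 6.34. The 8 ES cell markers were bright in every array, with summed log2 values of 107.36 to 107.76 in haploid and 104.84 to 105.19 in diploid samples, and 3 of the 8 (Pou5f1, Nanog and Klf4) passed as higher in haploid cells. The 8 fibroblast markers, which can come from feeder cells, summed to 48.68 to 50.12 in haploid and 54.03 to 61.00 in diploid samples. Their lowest value was 3.37, Col1a2 was lower (-2.62 ± 0.29, limma adjusted p = 0.00326), Fbln1 was higher (1.06 ± 0.18, adjusted p = 0.0116), and diploid replicate 1 was the highest array for 5 of the 8. In bulk samples fewer cells of a type and less RNA per cell cannot be told apart. None of the 6 primitive endoderm markers passed, and their sums were 34.49 to 35.27 in haploid and 34.03 to 35.88 in diploid samples.

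Of the 133 zinc finger genes, 9 were higher and 14 were lower in haploid than in diploid cells at a limma adjusted p under 0.05 over all genes. That is 17.3% of the set, against 14.9% of all 18193 genes, of which 7.92% were higher and 6.96% lower. The 172 genes from Zfp1 to Zfp599 had 12 higher and 12 lower members, or 14.0%. The share of the Zfp600 to Zfp999 genes that passed therefore lay near that of the whole array. Their median difference was -0.011, against -0.029 for all genes and -0.037 for Zfp1 to Zfp599. Their median difference without regard to sign was 0.27, against 0.20 for all genes and 0.23 for Zfp1 to Zfp599. The set held fewer dim genes: 4 of 133 had a mean under 4.80, the lowest lower quartile of the arrays, against 2608 of 18193. Among genes above the median level, 18 of 72 members passed, against 26.5% of 9096 genes.

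Large differences were few. The set ran from -0.97 to 3.09, and 130 of the 133 genes lay within 1 log2 unit of 0. Zfp934 and Zfp869 passed and were more than 2-fold higher in haploid cells, where 2.28% of all genes did so. With 1 probe set per gene, no member passed and was 2-fold lower, where 1.32% of all genes did so. When all probe sets were tested, a dimmer probe set of Zfp644 (-1.02) and the second probe set of Zfp930 (-1.12) passed as lower. The third gene beyond 1 log2 unit was X-linked Zfp711, which did not pass. The groups did not overlap for 24 genes in the higher and 27 in the lower direction, 38.3% of the set against 37.9% of all genes (17.7% higher and 20.2% lower).

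**Figure D1:**
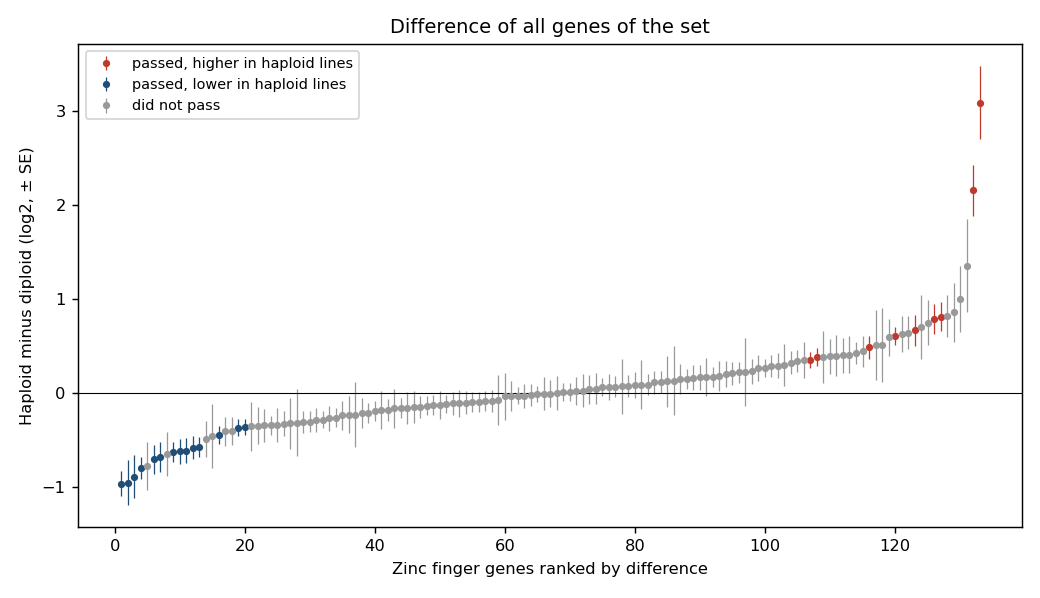
Haploid minus diploid difference (log2, vertical axis) of the 133 genes ranked from lowest to highest, with bars of 1 standard error. Red points passed as higher and blue points as lower at a limma adjusted p under 0.05 over all genes; Zfp934 (3.09) and Zfp869 (2.16) stand above the rest, and 130 genes lie within 1 unit of 0.

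The calls depended on single arrays. Of the 23 genes that passed with all arrays, 5 passed without diploid replicate 3, 7 without haploid HAP2, 10 without diploid replicate 2, 11 without haploid HTG1, 12 without diploid replicate 1 and 14 without haploid HAP1. With new calls counted, 5, 7, 10, 15, 15 and 21 members passed in the same order. The shares of all genes that follow count new calls too. The share of all genes that passed moved as well, to 5.33% without diploid replicate 3, 7.85% without HAP2, 6.57% without diploid replicate 2, 11% without HTG1, 13% without diploid replicate 1 and 13.3% without HAP1. Zfp934, Zfp869, Zfp647 and Zfp658 passed under every one of the alternatives run for them. Aligning the array medians turned the calls to 6 higher and 15 lower, and a repeated quantile normalization to 7 higher and 13 lower; over all genes the counts were 1441 higher and 1266 lower as deposited, 1225 and 1680 with aligned medians, and 1259 and 1407 after quantile normalization.

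Zfp934, a zinc finger gene on chromosome 13, showed the largest difference. Its values were 11.95, 11.14 and 11.84 in HAP1, HAP2 and HTG1, against 9.41, 8.29 and 7.95 in diploid replicates 1, 2 and 3. All haploid values lay above all diploid values, and diploid replicate 1 was the highest of its group. The means were 11.64 ± 0.44 in haploid and 8.55 ± 0.76 in diploid samples (SD, n = 3 each), 8.53-fold higher in haploid cells, with a difference of 3.09 ± 0.39 (SE) and a limma adjusted p of 0.00489. A second, dimmer probe set of Zfp934 differed by 0.99 in the same direction. Across the alternatives the difference ran from 2.04 to 3.52. The higher value of diploid replicate 1 went along with the fibroblast markers of that array, and the part of these cells in it was not tested.

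Zfp869, on chromosome 8, had values of 8.80, 8.47 and 9.43 in HAP1, HAP2 and HTG1, against 7.13, 6.61 and 6.49 in the diploid replicates. The groups were more than 1 unit apart, and HTG1 was the highest haploid array. The means were 8.90 ± 0.49 in haploid and 6.74 ± 0.34 in diploid samples (SD, n = 3 each), 4.47-fold higher in haploid cells, with a difference of 2.16 ± 0.27 and a limma adjusted p of 0.00486. It ran from 1.89 to 2.49 across the alternatives. Each haploid background showed both differences: HAP1 and HAP2 exceeded the diploid samples by 2.99 for Zfp934 and by 1.89 for Zfp869, and HTG1 exceeded them by 3.29 and 2.69.

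The zinc finger genes beside them did not share the size of these differences. Next to Zfp934, Zfp935 differed by 0.023 (limma adjusted p = 0.942). Zfp869 lies in a run of 5 members on chromosome 8. Of the others, Zfp868 differed by -0.35, Zfp963 by 0.087 and Zfp866 by 0.16, and none of the 3 passed. Zfp930, in the same run, passed in the opposite direction. Another gene beside them, Gm10033, had values of 4.72, 3.48 and 5.69 in haploid and 3.31, 3.44 and 3.29 in diploid samples. It differed by 1.29 with groups that did not overlap and did not pass (limma adjusted p = 0.126). HTG1 exceeded the diploid samples by 2.35 for Gm10033. Its means of 4.63 in haploid and 3.34 in diploid samples both lie under 4.80, the lowest lower quartile of the arrays.

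**Figure D2:**
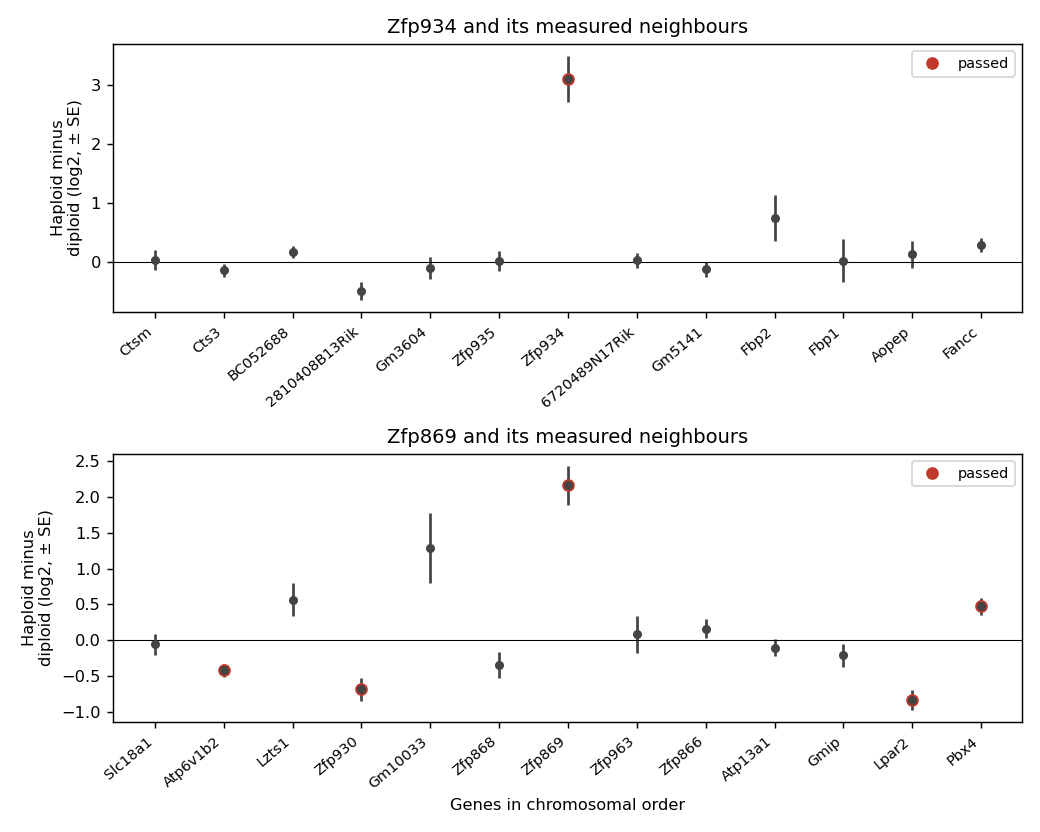
Haploid minus diploid difference (log2, vertical axes) of Zfp934 and Zfp869 and of the measured genes on both sides of each, in chromosomal order, with bars of 1 standard error. Red points mark genes that passed at a limma adjusted p under 0.05. Zfp934 (3.09) and Zfp869 (2.16) stand far above the zinc finger genes beside them.

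The promoters of Zfp869 and of 3 of the members beside it are shown to compare these neighbouring genes, of which only Zfp869 passed. The stretches lie upstream of the annotated starts, come from RefSeq with build GRCm38.p6, and leave out bases that fall inside a protein-coding gene. They cover chr8:69717069-69717152 for Zfp869, chr8:69625558-69625798 for Zfp868, chr8:69749963-69750212 for Zfp963 and chr8:69774912-69775161 for Zfp866, all on the minus strand, and are written 5′ to 3′ along the gene. Capitals mark CCAAT, the box bound by the factor NF-Y, searched on both strands.
Zfp869: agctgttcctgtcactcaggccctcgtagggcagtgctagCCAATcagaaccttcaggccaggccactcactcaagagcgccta
Zfp868: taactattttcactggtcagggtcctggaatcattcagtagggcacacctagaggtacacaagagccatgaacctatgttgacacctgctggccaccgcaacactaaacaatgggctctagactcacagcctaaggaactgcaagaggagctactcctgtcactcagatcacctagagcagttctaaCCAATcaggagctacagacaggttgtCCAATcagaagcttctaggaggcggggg
Zfp963: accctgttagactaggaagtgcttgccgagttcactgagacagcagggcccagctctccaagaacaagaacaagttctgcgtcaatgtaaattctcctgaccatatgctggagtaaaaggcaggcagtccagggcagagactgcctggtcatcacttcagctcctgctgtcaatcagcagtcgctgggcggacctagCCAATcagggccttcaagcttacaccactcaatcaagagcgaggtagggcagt
Zfp866: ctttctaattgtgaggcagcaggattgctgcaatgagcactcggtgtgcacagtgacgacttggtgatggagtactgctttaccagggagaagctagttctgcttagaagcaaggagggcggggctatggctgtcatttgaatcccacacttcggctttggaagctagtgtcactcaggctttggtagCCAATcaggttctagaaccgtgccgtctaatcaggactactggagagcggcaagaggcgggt

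In each of the 4 stretches a CCAAT box stands in the last part before the start and is followed by cag. In the 250 bases before the start, Zfp869 has 4 CCAAT boxes, of which 1 is in the printed stretch, Zfp868 has 2, and Zfp963 and Zfp866 have 1 each. The longest run of bases that the 250-base promoter of Zfp869 shares with that of Zfp868 is 13, and it is 12 with Zfp963 and 12 with Zfp866. A CCAAT box in these promoters thus went along with differences from -0.35 to 2.16.

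Over the set, 117 of the 133 genes had a promoter in the RefSeq table. At least 1 CCAAT on either strand was found in 64 of them (54.7%), against 37.3% of 134 promoters of Zfp1 to Zfp599 and 35.7% of 14368 promoters of measured genes, each over 250 bases. At least 4 copies were found in 4 members (3.42%), against 1.26% of all promoters. These are Zfp687 with 5 copies and Zfp691, Zfp869 and Zfp941 with 4 each. Of the 64 genes with the box 5 were higher and 5 lower in haploid cells (15.6%), and of the 53 without it 2 were higher and 7 lower (16.98%), against 14.9% of all genes (7.92% higher and 6.96% lower). The E-box CACGTG was found in 9.40% of member promoters and in 7.57% of all. CpG observed over expected was above 0.6 in 48.7% of the member promoters, against 53.5% of all promoters. A match of letters does not show that a factor binds.

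The other 7 genes that were higher in haploid cells differed by less than 1 unit, and they are named because they passed, after their values were seen. Zfp950 had values of 5.31, 5.67 and 5.63 in HAP1, HAP2 and HTG1, against 4.82, 4.87 and 4.48 in the diploid samples, whose mean lies under 4.80, the lowest lower quartile of the arrays. Its difference was 0.81 ± 0.15 (limma adjusted p = 0.0161), at least 1.67-fold higher when the diploid mean is set to that floor. The differences of its 3 probe sets ran from 0.024 to 0.81, and the call was lost with their mean. Zfp975 had values of 9.09, 9.52 and 9.54 in haploid and 8.43, 8.80 and 8.57 in diploid samples, a difference of 0.78 ± 0.16 (adjusted p = 0.0212). Its second probe set differed by 0.89 and passed too when all probe sets were tested. Zfp707 differed by 0.48 and Zfp790 by 0.38, and the second probe set of Zfp707 by 0.54 but that of Zfp790 by -0.074. The calls of Zfp707 and Zfp790 were lost in 8 and 11 of 13 alternatives.

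For 2 of these genes the difference turned its sign under another handling of the probe sets. Zfp771 values were 10.12, 10.05 and 10.03 in haploid and 9.53, 9.32 and 9.54 in diploid samples, a difference of 0.60 ± 0.099 (limma adjusted p = 0.0107). Of its 6 probe sets, the 2 brightest, of a type that can match more than 1 transcript by its name, differed by 0.60 and 0.59. The difference was -0.048 when such probe sets were left out. Zfp664 differed by 0.35 ± 0.084 with its brighter probe set and by -0.39 with the other, which did not pass, and by -0.022 for the mean of both. Its call was lost or turned in all but 3 alternatives. Across the 64 members with several probe sets, none had 1 probe set that passed as higher and another as lower.

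**Figure D3:**
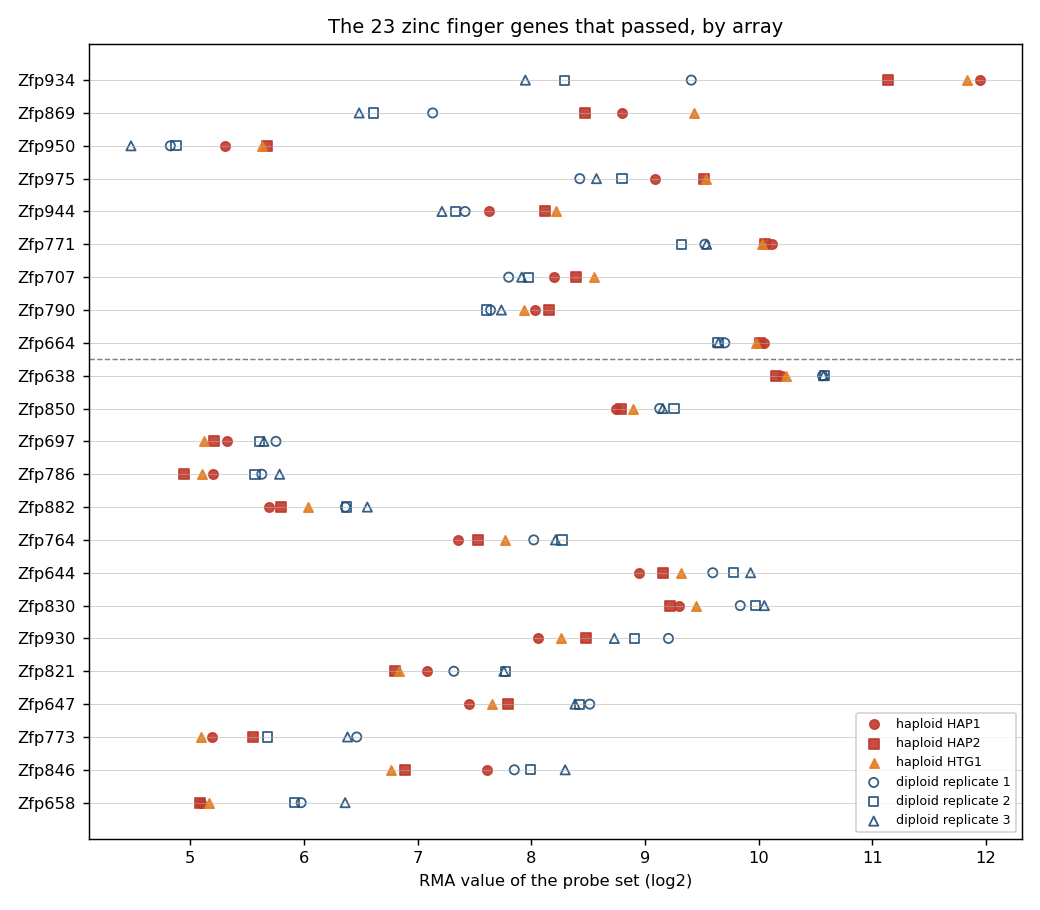
RMA values (log2, horizontal axis) of the 23 genes that passed, 1 row per gene, with filled symbols for haploid HAP1, HAP2 and HTG1 and open symbols for diploid replicates 1, 2 and 3. The 9 genes above the dashed line were higher and the 14 below it lower in haploid cells, and the groups do not overlap for any of the 23.

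The 14 genes that were lower in haploid cells differed by -0.97 to -0.37. Zfp638, Zfp644 and Zfp830 were to be named whatever their value, and the other 11 are named because they passed, after their values were seen. Zfp638 is the mouse form of human ZNF638 (NP220), which brings the HUSH silencing complex to retroviral DNA that has not integrated. Its values were 10.21, 10.15 and 10.24 in HAP1, HAP2 and HTG1, against 10.56, 10.58 and 10.57 in the diploid samples. The groups did not overlap, and the difference was -0.37 ± 0.083 (limma adjusted p = 0.0294). The next brightest probe set differed by -0.50. The call was lost in 8 of 13 alternatives.

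Human ZNF644, the counterpart of Zfp644, works with WIZ in the G9a and GLP methyltransferase complex. Zfp644 had values of 8.94, 9.16 and 9.32 in haploid and 9.60, 9.78 and 9.93 in diploid samples, a difference of -0.63 ± 0.14 (limma adjusted p = 0.0257). Among its 6 probe sets the differences ran from -1.02 to 0.55. When all probe sets were tested 3 of them passed as lower, that at -1.02 included, and those above 0 did not pass. Zfp830, known in mouse as Omcg1 and needed for the inner cell mass of the embryo, had values of 9.30, 9.22 and 9.45 in haploid and 9.84, 9.97 and 10.05 in diploid samples. That is a difference of -0.63 ± 0.11 (adjusted p = 0.0114), with 3 other probe sets at -0.82, -0.62 and -0.23. Both genes were lower in every haploid array than in every diploid array.

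Zfp658 and Zfp647 kept their calls under every alternative run. Zfp658, on chromosome 7, had values of 5.10, 5.08 and 5.16 in HAP1, HAP2 and HTG1, against 5.98, 5.92 and 6.36 in the diploid samples, a difference of -0.97 ± 0.13 (limma adjusted p = 0.00605). Zfp647, on chromosome 15, had values of 7.45, 7.79 and 7.66 in haploid and 8.51, 8.42 and 8.38 in diploid samples, a difference of -0.80 ± 0.11 (adjusted p = 0.00649). In both genes HAP1, HAP2 and HTG1 lay close together and well under the diploid arrays. Zfp846 was less even, with 7.61, 6.89 and 6.77 in haploid and 7.85, 7.99 and 8.30 in diploid samples, where HAP1 stood apart from HAP2 and HTG1. Zfp773 had 5.19, 5.55 and 5.09 in haploid and 6.46, 5.68 and 6.38 in diploid samples, where diploid replicate 2 stood near the haploid arrays. The calls of Zfp846 and Zfp773 were each lost in 6 alternatives.

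The remaining lower genes were Zfp821 (-0.71), Zfp930 (-0.68), Zfp764 (-0.62), Zfp882 (-0.59), Zfp786 (-0.58), Zfp697 (-0.45) and Zfp850 (-0.37). The second probe set of Zfp930 fell further, by 1.12 on the log2 scale, and passed too when all probe sets were tested. That of Zfp697 differed by -0.040 and that of Zfp882 by 0.15, and neither passed.

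Some of the lower calls went along with a shift of a whole chromosome. The median difference of the brighter genes was -0.33 on chromosome 8 and -0.27 on chromosome 11, and 21.2% and 20.3% of all measured genes there were lower in haploid cells. Chromosome 8 holds 14 members, of which Zfp821, Zfp882 and Zfp930 were lower and Zfp869 was higher. The median of the brighter genes of each chromosome was then subtracted array by array. After this, none of the 14 was lower and 2 were higher, Zfp869 and Zfp703. Zfp703, whose human counterpart is a corepressor gene amplified in breast cancer, differed by 0.15 as deposited (limma adjusted p = 0.382) and by 0.48 after the subtraction (adjusted p = 0.0329). Zfp830 on chromosome 11 lost its call after the subtraction, and so did Zfp638 and Zfp786 on chromosome 6. The shift of chromosome 6 between the groups was -0.025, but the diploid arrays differed in it. What was subtracted there was 0.30 in diploid replicate 1, -0.14 in diploid replicate 2 and -0.11 in diploid replicate 3. The higher calls of Zfp664, Zfp707, Zfp790 and Zfp944 were lost as well. The whole set then had 6 higher and 9 lower members, where 14.9% of all genes passed (1150 higher and 1552 lower).

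On chromosome 6, diploid replicate 1 was the highest diploid array for 6 of 9 members. The brighter genes of chromosome 6 stood 0.30 above their mean over the 6 arrays in diploid replicate 1, against -0.14 and -0.11 in diploid replicates 2 and 3. Zfp800 had values of 8.07 in diploid replicate 1, against 7.03 and 6.999 in the other diploid replicates. Zfp775 had 8.70 in diploid replicate 1, against 7.79 and 7.77. Zfp746 (PARIS), a repressor known as a target of the ubiquitin ligase Parkin, had 9.66, against 9.07 and 9.15. Diploid replicate 1 thus stood apart from its group in all 3 genes, and none of them passed between the groups with its brightest probe set. HAP1, HAP2 and HTG1 had 7.18, 7.54 and 7.59 for Zfp800. They had 7.60, 7.63 and 8.06 for Zfp775 and 8.83, 8.89 and 9.13 for Zfp746.

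Among the members named for their known roles, 3 KRAB zinc finger genes linked to the silencing of retroviral elements did not pass. Zfp809, which in mouse brings TRIM28 to the proline tRNA primer binding site of murine leukaemia virus type elements, had 8.78, 9.05 and 10.11 in HAP1, HAP2 and HTG1, against 8.17, 9.04 and 9.20 in the diploid samples (0.51 ± 0.40, limma adjusted p = 0.42). Zfp932, which binds endogenous retroviruses in mouse ES cells, had 9.17, 9.85 and 10.37 in haploid and 8.56, 9.37 and 9.38 in diploid samples (0.70 ± 0.34, adjusted p = 0.215). Zfp819, a mouse TRIM28 partner linked to repression of IAP elements, had 8.56, 9.10 and 9.12 in haploid and 8.37, 9.74 and 9.37 in diploid samples (-0.23 ± 0.35, adjusted p = 0.685). In all 3 genes HAP1 was the lowest haploid array and diploid replicate 1 the lowest diploid array, and the groups overlapped. HTG1 was the highest of all arrays for Zfp809 and Zfp932.

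X-linked Zfp711, whose human counterpart is an intellectual disability gene, had 7.25, 8.02 and 7.31 in haploid and 4.98, 6.73 and 6.80 in diploid samples. The groups did not overlap, but diploid replicate 1 lay far under the others and the difference of 1.35 ± 0.49 did not pass (limma adjusted p = 0.112). The brighter X-linked genes were shifted by 0.77 as a whole, and with that shift subtracted Zfp711 differed by 0.58. Without diploid replicate 1 its difference was 0.76. Zfp827, whose human counterpart brings the NuRD complex to telomeres, differed by -0.78 ± 0.26 (adjusted p = 0.0876). It passed without diploid replicate 1, with a difference of -1.03 (adjusted p = 0.0307), and under no other alternative run. Zfp827 lies on chromosome 8, and with the shift of that chromosome subtracted it differed by -0.45. Its second probe set differed by -0.17.

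Other genes were named for their known roles or for their bright probe sets. Zfp622, a factor of late maturation of the large ribosomal subunit, had 12.69, 12.59 and 12.61 in haploid and 12.81, 12.997 and 12.95 in diploid samples and did not pass (-0.29, limma adjusted p = 0.0854), although the groups did not overlap. It passed at the same difference when limma used a trend and a robust setting (adjusted p = 0.0416). Without probe sets that may match several transcripts, its difference was 0.074. Zfp687, a partner of ZMYND8 in human cells, differed by 0.16, Zfp750, a regulator of epidermal differentiation, by 0.044, and Zfp704 by -0.0030. Zfp668 differed by 0.26, Zfp740 by 0.17 and Zfp768 by 0.34. Among the genes with the brightest probe sets, Zfp655 differed by 0.22, Zfp871 by 0.069 and Zfp982 by -0.076. For Zfp982 the difference was 0.74 without probe sets that may match several transcripts. None of these 9 passed as deposited. Zfp655 passed with the mean of its probe sets, at 0.35 (adjusted p = 0.0354).

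Members tend to sit side by side: 81 of the 133 lay in 24 clusters with at most 10 other genes between neighbours, and 52 lay alone. In clusters 13 genes passed (16.0%), and 10 of those that lay alone passed (19.2%), against 14.9% of all genes. The largest cluster, on chromosome 17, held 13 members, and only Zfp944 of them passed. Zfp944 had 7.63, 8.12 and 8.22 in HAP1, HAP2 and HTG1, against 7.42, 7.33 and 7.21 in the diploid samples (0.67 ± 0.16, limma adjusted p = 0.0383). Zfp942 had 7.90, 8.72 and 8.59 in haploid and 7.78, 7.58 and 7.40 in diploid samples (0.82 ± 0.22, adjusted p = 0.0519), so that it missed the threshold with groups that did not overlap. The differences of its 3 probe sets ran from -0.25 to 0.99, and none of them passed. The differences of the 3 probe sets of Zfp944 ran from 0.055 to 0.67. Its call was lost in 7 of 13 alternatives, the mean of probe sets among them.

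**Figure D4:**
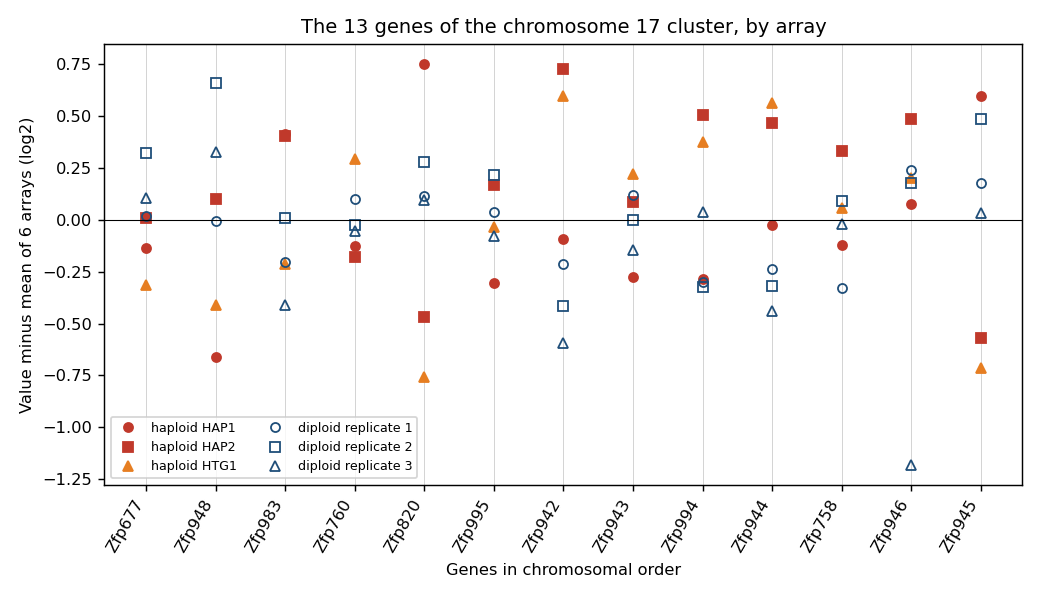
Value of each array minus the gene's mean over the 6 arrays (log2, vertical axis) for the 13 genes of the chromosome 17 cluster in chromosomal order, with filled symbols for haploid lines and open symbols for diploid replicates. With 1 probe set per gene, its brightest, HAP1 lies above every other array for Zfp820 and Zfp945 and below the other haploid arrays for 8 genes, and diploid replicate 3 lies far below the rest for Zfp946.

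Zfp942 and Zfp944 each share a start region with a partner on the other strand. Upstream of Zfp942, towards Zfp943, 55 bases lie outside protein-coding genes (chr17:21962504-21962558 of GRCm38.p6, written along the minus strand, that of Zfp942). In them capitals mark an E-box, CACGTG. On opposite strands the 250-base promoters of Zfp942 and Zfp943 share a run of 94 bases. The stretch of 55 bases is shown because it lies between both starts.
Zfp942: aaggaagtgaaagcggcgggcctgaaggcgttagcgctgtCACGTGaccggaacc

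On the other side of this stretch, Zfp943 differed by 0.018, and Zfp758, the partner of Zfp944, by 0.17, and neither passed. The 250-base promoters of Zfp942 and Zfp944 share a run of 157 bases, and those of Zfp943 and Zfp758 share a run of 198, so these copies are identical over much of their promoters. How far the probe sets of Zfp942 and Zfp944 catch RNA of each other was not tested.

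The 3 haploid lines differed among themselves in the chromosome 17 cluster. HAP1 was the lowest haploid array for 8 of the 13 genes and the highest for 3. Zfp820 had 8.62 in HAP1, against 7.40 in HAP2 and 7.11 in HTG1, and Zfp945 had 8.34 in HAP1, against 7.17 in HAP2 and 7.03 in HTG1. The diploid values were 7.98, 8.15 and 7.97 for Zfp820 and 7.92, 8.23 and 7.78 for Zfp945. With these probe sets, the brightest of each gene, HAP1 lay above all diploid arrays, and HAP2 and HTG1 lay below all of them. Another probe set of Zfp945 had the opposite order, with 5.77 in HAP1, 8.54 in HAP2 and 7.83 in HTG1, against 5.55, 5.33 and 4.79 in the diploid samples. The second probe set of Zfp820 had 8.06 in HAP1, 6.66 in HAP2 and 6.397 in HTG1, against 7.97, 8.13 and 8.07 in the diploid samples, so that HAP1 lay among the diploid arrays there. Zfp946 stood out in the diploid group, with 5.30 in diploid replicate 3, against 6.72 and 6.65 in the others.

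A second cluster on chromosome 8 (Zfp709, Zfp882, Zfp617 and Zfp961) had 1 order of the haploid arrays in the brightest probe sets of all 4 genes, with HTG1 highest and HAP1 lowest, and diploid replicate 1 was the lowest diploid array in all 4. Zfp961 was the widest, with 8.86, 9.71 and 10.46 in HAP1, HAP2 and HTG1, against 9.33, 9.63 and 9.69 in the diploid samples. Zfp709 had 5.02, 5.43 and 5.96 in haploid and 4.67, 5.37 and 5.23 in diploid samples. In the 6-member cluster of Zfp871 on chromosome 17 HAP1 was the lowest haploid array for all 6 genes.

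Parts of this order were seen across the set. HAP1 was the lowest of the haploid arrays for 51.1% of the 133 genes, against 44.8% of Zfp1 to Zfp599 and 30.9% of all genes. Diploid replicate 1 was the lowest of the diploid arrays for 51.1%, against 56.4% of Zfp1 to Zfp599 and 34.0% of all genes. HTG1 was the highest haploid array for 45.9%, against 50% of Zfp1 to Zfp599 and 32.3% of all genes. Both groups of zinc finger genes thus leaned the same way, and the lean was small per gene: the median of HAP1 minus the mean of HAP2 and HTG1 was -0.14, and that of diploid replicate 1 minus the mean of replicates 2 and 3 was -0.096. These shares describe 6 arrays, carry no test, and count genes that share chromosomes and sequence.

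**Figure D5:**
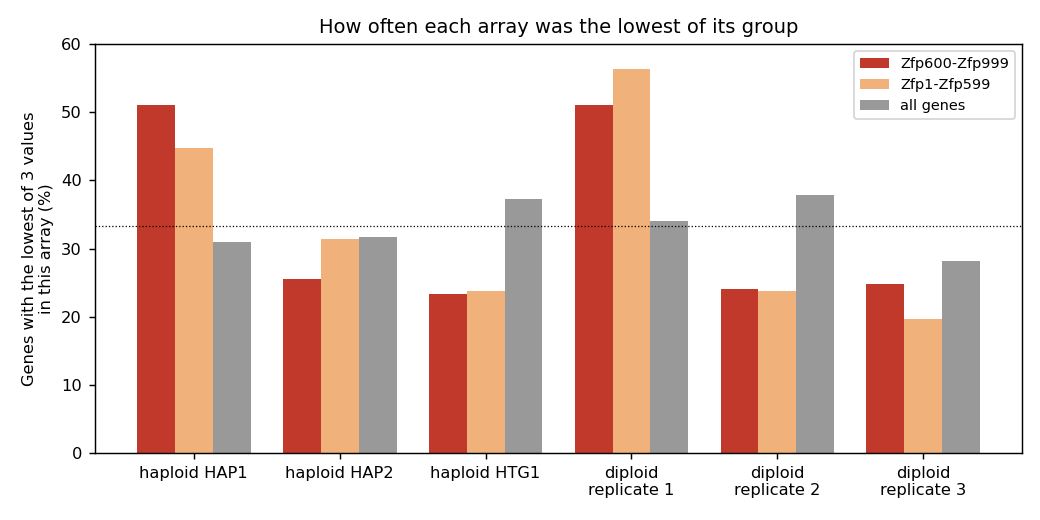
Percent of genes (vertical axis, from 0) whose lowest value among the 3 arrays of a group fell in the array named below, for Zfp600 to Zfp999, Zfp1 to Zfp599 and all genes. The dotted line marks an even share; HAP1 and diploid replicate 1 are lowest for 51.1% of the Zfp600 to Zfp999 genes each.

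HTG1 differs from HAP1 and HAP2 in strain background, passage and transgene. With HTG1 as 1 array whose spread was taken to be that of the other groups, no zinc finger gene of the set passed in either direction with limma, where 0.374% of all genes did (44, or 0.242%, higher and 24, or 0.132%, lower). At an unadjusted p under 0.05 there were 16 of the 133 (12.03%), against 9.17% of all genes. The highest differences were those of Zfp809 (1.19 ± 0.42, adjusted p = 0.466), Zfp961 (1.18 ± 0.35, adjusted p = 0.365) and Zfp770 (1.03 ± 0.40, adjusted p = 0.520). The lowest was that of Zfp820 (-0.90 ± 0.45, adjusted p = 0.656). Against HAP1 alone it was -1.51, which compares 1 array with 1 array. Zfp820 had 7.11 in HTG1, close to 7.40 in HAP2, and 8.62 in HAP1. These 4 genes were chosen after their values were seen. The 4 measured markers of the two-cell-like state moved with HTG1, with a mean of 8.40 in HTG1, against 5.48 in HAP1 and 5.45 in HAP2, and 4.72 to 4.78 in the diploid arrays, and their part in the zinc finger values was not tested.

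Against the same diploid arrays, HAP1 and HAP2 together had 7 higher and 8 lower members (11.3%, against 11% of all genes, 6.11% higher and 4.87% lower), and HTG1 had 4 higher and 2 lower members (4.51%, against 8.33% of all genes, 4.87% higher and 3.46% lower). The 2 comparisons share the diploid samples. Zfp647 differed by -0.82 in HAP1 and HAP2 and by -0.78 in HTG1, and Zfp658 by -0.995 and -0.92.

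Genes of the machinery that acts with KRAB zinc fingers were listed too. Of 28 listed genes 25 were measured, of which 3 rose and 2 fell in haploid cells (20%, against 14.9% of all genes), and their median difference was -0.099. The groups did not overlap for 4 of them in the higher and 10 in the lower direction (56%, against 37.9% of all genes). Trim28, the corepressor itself, had 13.79, 13.68 and 13.71 in HAP1, HAP2 and HTG1, against 13.68, 13.85 and 13.88 in the diploid samples (-0.079, limma adjusted p = 0.613). Setdb1, the methyltransferase, had 10.38, 10.10 and 10.32 in haploid and 10.40, 10.53 and 10.80 in diploid samples (-0.31, adjusted p = 0.176). Across the alternatives the difference of Setdb1 ran from -0.40 to 0.22. Zfp57, the zinc finger that guards imprinted regions, differed by 0.16 and did not pass.

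Atrx, an X-linked chromatin remodeller that works with DAXX at repeats, rose most, with 12.29, 12.19 and 12.72 in haploid and 11.04, 11.32 and 11.07 in diploid samples (1.26 ± 0.16, limma adjusted p = 0.00504). With the shift of the X chromosome subtracted it differed by 0.49 and did not pass (adjusted p = 0.0947), and for the mean of its probe sets the difference was 0.73. Ehmt2 (G9a) rose by 0.47 and the deacetylase Hdac1 by 0.39, and their calls were lost in 3 and 4 of 13 alternatives, each time with an array left out. Morc2a, which acts with the HUSH complex, differed by -0.48, and Chd4, the NuRD remodeller, by -0.45, and both passed as lower. Both calls were lost with chromosome shifts subtracted, with differences of -0.21 for Morc2a (adjusted p = 0.238) and -0.42 for Chd4 (adjusted p = 0.133), and that of Chd4 without probe sets that may match several transcripts, at -0.19 (adjusted p = 0.227). Both were also lost without diploid replicate 2, without diploid replicate 3, without HAP1 and without HAP2; Chd4 was lost without diploid replicate 1 too, and Morc2a without HTG1.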

How the data were processed

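Per the submitters' processing notes the authors used RMA, and the values they deposited are log2 signals, 1 for each probe set on each array. Background correction, quantile normalization and probe summary are the usual steps of RMA, so differences are relative to the bulk of genes and those of dim genes are compressed. Of 45101 probe sets, 64 controls were left out. Platform annotation gave 34945 probe sets 1 symbol, 932 several and 9160 none, and 19 probe sets that listed a member among several symbols were not used. All 133 members matched RefSeq, which gave chromosome, gene order and promoters.

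Haploid and diploid arrays were compared over 18193 genes in R 4.3.3 by limma 3.58.1 (two-sided, lmFit with eBayes) and a Benjamini-Hochberg adjusted p of 0.05. All adjusted p-values come from limma, and every ± after a difference is its moderated standard error. A fit with diploid, HAP1 with HAP2, and HTG1 as 3 groups gave the line contrasts. Folds against a mean under 4.80 are lower bounds. The fits were tested on simulated data.

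Named genes were members that passed at 2-fold with groups apart, the 4 with the brightest probe set, genes with known roles, and TRIM28 pathway genes that passed; the rest are marked as named after their values were seen. Zfp600 and Zfp706, both on the list of known roles, were not analysed here. The members and lists were chosen with earlier results of these data known. Protein domains were not analysed here. The number of arrays limits the precision.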

Additional observations from a re-analysis of the deposited data

How the results depend on the processing

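No paired analysis was possible because the haploid samples carry line names and the diploid samples replicate numbers, and nothing ties one to the other. The count of lower members, 14 as deposited, was 9 with chromosome shifts subtracted, 9 with the mean of probe sets and 8 among genes above the median level. Only 72 of the 133 members lie above that level. Over all genes the counts of lower genes were 1266, 1552, 1187 and 1026 in the same order, the last out of 9096. The count of lower TRIM28 pathway genes, 2 as deposited, was 1 with chromosome shifts subtracted, which was neither of the 2, and 1 without probe sets that may match several transcripts. Zfp1 to Zfp599 had 7 higher genes with chromosome shifts subtracted, and 5 lower genes above the median level, where 94 of its 172 genes lie. Leaving out 1 array at a time gave 3 to 11 higher and 2 to 10 lower members. Over all genes the same fits gave 571 to 1395 higher and 399 to 1082 lower. The TRIM28 pathway had 1 to 3 higher and 0 to 1 lower genes, and Zfp1 to Zfp599 had 6 to 16 higher and 3 to 14 lower. For HTG1 such counts are not given, because without HAP1 or without HAP2 only 1 array stood on each side. Zfp664 turned to -0.022 with the mean of probe sets and Zfp771 to -0.048 without probe sets that may match several transcripts. All other counts given stayed within 1.5 times under the alternatives run. Of the 23 members that passed, 4 passed under all alternatives, which were array medians aligned, quantile normalization, trend and robust settings, chromosome shifts, the mean of probe sets, the omission of unspecific probe sets, genes above the median level and the omission of each array. HTG1 could not be compared with HAP1 and HAP2 without itself. The cause of these changes was not tested, except that fewer samples or genes entered some fits. With 3 arrays in a group, and signal near background for dim genes, small differences were not detectable.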

Other observations

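Of the members that did not pass, 15 lay higher and 13 lower in every haploid than in every diploid array, which is 25.5% of the 110, against 27.1% of all genes that did not pass. The widest apart from Zfp711 was Zfp619 on chromosome 7, with 6.65, 6.57 and 7.54 in HAP1, HAP2 and HTG1, against 5.27, 6.32 and 6.17 in the diploid samples (0.999 ± 0.35, limma adjusted p = 0.102). Zfp991, in the same cluster as Zfp982 on chromosome 4, had 10.03, 10.80 and 10.44 in haploid and 8.91, 9.94 and 9.86 in diploid samples (0.86 ± 0.31, adjusted p = 0.112) with its brightest probe set, and its other 2 probe sets differed by -0.12 and -0.33. Zfp980, on the same chromosome, differed by 0.64 ± 0.18 (adjusted p = 0.0524). In Zfp619 and Zfp991 diploid replicate 1 was the lowest of the diploid arrays.

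The gene next to Zfp932 on chromosome 5, the cytokine receptor gene Crlf2, had 10.99, 10.90 and 11.34 in HAP1, HAP2 and HTG1, against 8.30, 9.31 and 9.07 in the diploid samples, and passed as higher in haploid cells (2.18 ± 0.26, limma adjusted p = 0.00419). These genes were chosen after their values were seen.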
